A study of Rattus norvegicus with 8 samples.

Results

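On ovary arrays, the probes described here gave signal well above background with all 4 samples labelled control and with 0 of the 4 labelled PMSG. Pregnant mare serum gonadotropin, PMSG, is a hormone preparation with mainly follicle-stimulating activity. A probe is a DNA oligonucleotide of 60 bases on the array, designed to bind one labelled transcript. Some members share sequence with other probes, as given below. Of 30350 probes measured, 52 had this pattern, and 3 of those were set aside by name (Ereg, ste2 and the Akr1c family), which left 49. The members were chosen from these same arrays, so their differences between the labels are descriptions and not tests. The call itself is the scanner software's flag for a spot well above background, required of at least 0.5 of the usable spots of a probe. The mirror pattern, all 4 arrays labelled PMSG and 0 labelled control, was found for 88 probes.

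Total RNA came from ovaries of 28-day-old female rats, whose strain the labels do not give. At 26 days of age they had received, under the skin, either 50 IU PMSG in 0.2 ml of phosphate buffer with albumin or the same volume of that buffer alone, and 48 h passed before the ovaries were taken. Nothing in the labels says how many animals gave each of the 8 samples, so the spread between arrays of one label may be biological or technical. The question posed by the design is which ovarian transcripts differ after the hormone. In whole ovary, fewer cells of a type and less RNA per cell cannot be told apart. Ovarian markers were well detected on all 8 arrays: Inha, a subunit of the granulosa hormone inhibin, had a mean level of 6.40 ± 0.29 (SD, n = 4) under the control label, and Zp3, a coat protein of the oocyte, one of 0.90 ± 0.35 (SD, n = 4). Levels here are log2 signals minus the 75th percentile of the same array, so a level of 0 is a bright probe and the members all lie below 0.

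For the genes named next, labels and known hormone responses ran in opposite directions. Star, which carries cholesterol into mitochondria, Cyp11a1, which starts steroid synthesis from it, and Lhcgr, the luteinising hormone receptor, are known to rise in the ovary under gonadotropin. In arrays labelled PMSG these genes were lower than in arrays labelled control by log2 differences of -2.75 ± 0.54, -3.36 ± 0.31 and -1.93 ± 0.27 (difference ± SE of the fit), with limma adjusted p of 0.0054, 0.0002 and 0.0011. Of the 14 luteal and steroidogenic genes listed further below, 12 were lower at a limma adjusted p under 0.05, as were 16.6% of all tested probes. Ptgfr, among the 12, is itself a member and so was picked from this same contrast. The list was chosen with earlier results of these data known. Sfrp4 was higher by 0.89 ± 0.13, and Hsd3b1, at 0.07 ± 0.13, passed in neither direction. Whether the titles were exchanged between the groups was not tested, and an exchange would turn every direction printed here. Directions therefore follow the sample titles alone and are written by label.

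Follicles of the immature ovary grow under follicle-stimulating hormone, and after a luteinising surge the wall of the follicle is broken down by proteases and the remaining cells become a corpus luteum. Granulosa cells, theca cells, endothelium and stroma exchange prostaglandins, guidance factors and matrix proteins in that process. Prostaglandin F2 alpha ends the life of the corpus luteum through its receptor Ptgfr, and matrix metalloproteinases such as Mmp3 cut matrix proteins.

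Several members were short repeats without a gene name, and their sequences show what the array measured. In the 5 probes that hold the same 8-base unit at least 3 times, the unit is in capitals. Sbp encodes spermine-binding protein, a secreted protein first known from the prostate, and its probe holds several GAT triplets in groups broken by other letters. Coordinates are those of the array files on the rat build rn4.

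Sbp, chr10:13186604-13186663, plus strand: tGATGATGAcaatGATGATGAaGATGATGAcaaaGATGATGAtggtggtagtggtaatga

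A_64_P085200, chr7:93586133-93586192, plus strand: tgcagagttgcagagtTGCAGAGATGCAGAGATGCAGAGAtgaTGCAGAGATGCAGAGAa

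A_64_P000703, chr5:8785190-8785249, plus strand: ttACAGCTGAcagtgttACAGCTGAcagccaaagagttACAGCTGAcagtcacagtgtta

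A_64_P093176, chr10:29286003-29286062, plus strand: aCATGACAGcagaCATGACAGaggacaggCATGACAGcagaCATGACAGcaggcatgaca

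A_64_P026132, chr15:24816866-24816925, minus strand: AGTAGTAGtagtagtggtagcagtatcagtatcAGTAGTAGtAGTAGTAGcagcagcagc

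Such repeats made up 10.2% of the members, 0.722% of all probes and 0 of the 88 probes of the mirror pattern. Probes with no gene name beyond a probe ID made up 24.5% of the members (12 of 49), 14.3% of all probes and 7.95% of the mirror set. Members without a place on an assembled chromosome numbered 8 (16.3%), against 5.70% of all probes. Their GC content had a median of 43.3%, close to the 45.0% of all probes. A stretch of at least 20 bases was shared with another probe on the array by 10 members, and no pair of members shared one.

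The members that carry the largest differences are mostly named transcripts without such repeats. The probe sequences of the 3 used most below follow, in lower case because the whole probe is what was measured. They have at least one reading frame without a stop.

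ENSRNOT00000010151, chr4:97087580-97087639, minus strand: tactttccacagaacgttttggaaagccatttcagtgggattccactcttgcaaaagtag

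Mmp3, chr8:4325061-4325526 across more than its 60 bases, plus strand: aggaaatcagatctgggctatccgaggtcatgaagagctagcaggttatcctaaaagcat

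LOC686142, chr17:63336287-63336346, minus strand: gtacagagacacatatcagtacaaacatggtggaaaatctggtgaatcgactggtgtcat

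All 49 members were dim. Their median signal in arrays labelled control was 23.3 (10.9 to 146.1), while probes detected on all 8 arrays had a median of 318.1. In arrays labelled PMSG the members' signals lay between 2.71 and 9.52, with a median of 4.81. A second, softer flag of the scanner software, for a signal positive and significant against background, was set on all 4 arrays labelled PMSG for 32 members, on 3 for 8, on 2 for 7 and on 1 for 2. No member lacked it on all 4. The name "detected only in control" therefore holds for the stricter flag, and by the softer one these probes had signal on at least 1 array of both labels. That softer flag was set for 91.9% to 95.0% of all probes on an array.

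The 49 had a median log2 difference, labelled PMSG minus labelled control, of -2.17, where all 25303 tested probes had a median of 0.11. With limma, 46 members were past the threshold of an adjusted p under 0.05 in the lower direction, as were 16.6% of all tested probes (34.2% in either direction). In 47 members the 4 values of one label did not overlap those of the other, which held in that direction for 18.6% of tested probes. Differences of -1 or below were found in 45 members and in 5.47% of tested probes. All of these shares follow from how the members were picked.

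Since a dim value is only a limit, the fold of each member is given as a bound. It sets the control-labelled mean against a floor on each PMSG-labelled array, which is the dimmest spot still flagged well above background there or, if brighter, the member itself. Bounds ran from 0.875 to 11.7 with a median of 1.87, over 4 in 5 members, over 2 in 21 and under 1 in 3. With each member set at its bound the median log2 difference was -0.90 in place of -2.17. With the dimmest flagged probe average in place of the dimmest flagged spot, the bounds of the 19 members described array by array ran from 1.69 to 25.3.

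The largest bound belonged to ENSRNOT00000010151, an uncharacterised protein in the array annotation, read from 1 spot per array. Its level was -2.32, -3.48, -2.68 and -2.90 in arrays labelled control 1 to 4, and -8.09, -8.59, -8.39 and -8.42 in arrays labelled PMSG 1 to 4. As signals these were 208.5, 94.6, 155.9 and 148.1 against 3.61, 2.66, 2.30 and 3.17. Under the control label it was higher by at least 11.7-fold, with every array of one label far from every array of the other. Another probe of the same accession, placed 619069 bases away, carried the stricter flag on 3 control-labelled and 0 PMSG-labelled arrays, with mean levels of -6.82 ± 1.17 and -8.33 ± 0.29 (SD, n = 4 each).

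Among secreted, matrix and adhesion proteins, with 9 members the most numerous role, bounds ran from 1.12 to 6.53. Mmp3, the stromelysin that cuts proteoglycans and other matrix proteins, had levels of -3.89, -3.42, -3.32 and -4.15 in arrays labelled control and -8.32, -6.89, -8.48 and -8.59 in arrays labelled PMSG. Its bound was at least 6.53-fold, and PMSG array 2 stood above the other 3 of its label. Other matrix metalloproteinase genes lie beside it on chromosome 8. Mmp10, a second stromelysin 47877 bases away, carried the stricter flag on 4 control-labelled and 2 PMSG-labelled arrays, and all of its control-labelled levels lay above all of its PMSG-labelled ones, but it did not pass the threshold (-1.63 ± 0.56, adjusted p = 0.0542 with limma). Mmp1a, a collagenase gene 28140 bases away, had a log2 difference of 0.22 ± 0.20 and did not pass it.

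Tpsg1, a membrane-anchored tryptase of mast cells, had levels of -4.45, -4.34, -4.02 and -4.24 in arrays labelled control and -8.31, -7.94, -8.39 and -7.61 in arrays labelled PMSG, a bound of at least 4.40-fold. Other mast cell tryptases beside it differed in the opposite direction: Tpsb2 by 0.73 ± 0.15 and Tpsab1 by 1.24 ± 0.19, both past the limma threshold. The Tpsg1 probe also overlaps a probe of Cacna1h, a calcium channel gene on the opposite strand, over 31 bases as its reverse complement. Cacna1h was detected on all 8 arrays and was higher in arrays labelled PMSG by 0.67 ± 0.18.

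Sema3d, a secreted semaphorin that guides axons and vessels, had the smallest spread within both labels among the 12 members with the largest bounds (SDs of 0.17 and 0.19, n = 4 each). Its levels were -4.58, -4.57, -4.20 and -4.42 in arrays labelled control against -7.86, -7.72, -8.00 and -7.55 in arrays labelled PMSG, at least 3.88-fold. The PMSG-labelled levels lay below the floors of those arrays (-6.70 to -6.16), so the SD of 0.19 is a spread of dim values. Wisp3, now Ccn6, is a matricellular protein of the CCN family. Its levels were -4.66, -5.32, -4.77 and -4.74 in arrays labelled control and -6.93, -6.79, -6.87 and -7.79 in arrays labelled PMSG, at least 2.88-fold. In each label one array sat apart from the other 3 and the labels did not meet.

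Mup4, a major urinary protein that carries small ligands, had levels of -5.38, -5.19, -4.47 and -4.66 in arrays labelled control and -7.98, -8.52, -6.73 and -8.63 in arrays labelled PMSG, at least 2.78-fold. Itga8, the integrin alpha 8 chain that pairs with beta 1 at the cell surface, had levels of -4.97, -5.22, -4.78 and -4.90 against -7.18, -6.71, -7.09 and -7.85, at least 2.70-fold. Sbp, whose repeat is printed above, had levels of -5.04, -5.08, -4.68 and -5.18 in arrays labelled control against -6.92, -8.09, -6.34 and -7.32 in arrays labelled PMSG, at least 2.65-fold. All arrays labelled control lay above all labelled PMSG for these genes. The other members of the role had smaller bounds, of 1.42 for Itln1, an intelectin that binds microbial sugars, and 1.12 for Bpifc, of a lipid-binding protein family.

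The 6 receptors had bounds of 1.51 to 4.18. Vom2r53, a vomeronasal receptor of the pheromone-sensing type, led them with levels of -3.84, -4.24, -4.72 and -4.55 in arrays labelled control and -8.47, -7.84, -8.57 and -8.98 in arrays labelled PMSG, at least 4.18-fold. Ptgfr, the prostaglandin F receptor, had -4.96, -4.74, -4.85 and -4.44 against -7.76, -7.91, -8.01 and -8.55, at least 3.14-fold. It is the one member that the lists of ovarian genes below contain. Of the other receptors, bounds were 2.33 for Fcer2, the low-affinity IgE receptor, 2.24 for Pth2r, a parathyroid hormone family receptor, and 1.51 for the olfactory receptor Olr640. Over the 4 PMSG-labelled arrays Pth2r had an SD of 0.21, at levels of -8.56 to -8.07. The floors of those arrays were -6.70 to -6.16, so this is the spread of dim values. Every usable control-labelled spot carried the stricter flag in 38 of the 49 members, and Pth2r was not among these.

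Of the enzymes of lipids and sugars, St8sia5 adds sialic acid to gangliosides. Its levels were -4.10, -4.47, -4.68 and -4.25 in arrays labelled control and -6.62, -6.51, -6.86 and -7.83 in arrays labelled PMSG, at least 4.07-fold. Its difference of -2.58 was smaller than the -3.80 of Tpsg1 at a similar bound, and its arrays labelled PMSG lay nearer to the floor. Sdr9c7, a short-chain dehydrogenase of skin lipids, and Arsk, a lysosomal sulfatase, had bounds of 2.25 and 1.17. Rdh7, a retinol dehydrogenase gene 36725 bases from Sdr9c7, was well above background on 4 and 1 arrays and was lower by -1.71 ± 0.42.

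Regulators of small GTPases and membrane traffic were 5. LOC686142, an exchange factor gene for Ral that the RefSeq table names Ralgdsl8, had levels of -4.81, -5.68, -4.89 and -4.76 in arrays labelled control and -8.45, -7.53, -8.10 and -8.89 in arrays labelled PMSG, at least 2.58-fold. Kalrn, an exchange factor for small GTPases, had -4.95, -5.16, -5.31 and -5.00 against -7.54, -7.96, -7.19 and -7.07, at least 2.45-fold. Rgl3, Ralgdsl3 in RefSeq, had -6.08, -6.43, -6.58 and -6.68 against -7.41, -7.77, -7.76 and -8.89, with no fold because its bound was under 1. The labels did not overlap for any of these genes. Sh3gl2, an endophilin of endocytosis, had a bound of 1.75, and LOC680967, a Rab-1A-like sequence, had 1.25 with overlapping labels.

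Channels and carriers gave 3 members: Cnga1, the cGMP-gated channel of rods, with a bound of 2.68 and, with smaller bounds, Unc79, a partner of the sodium leak channel, and the monocarboxylate carrier family gene Slc16a4, the latter at 1.17. Nuclear and cytoskeletal genes gave 3: the forkhead factor Foxb1 at 1.87, the muscle filament gene Neb at 1.32, and the meiotic helicase Hfm1 with a bound under 1. Unc79 had one bright array, at -4.50 in control array 4, while the other 3 of that label lay at -6.42 to -6.16, above all arrays labelled PMSG.

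The 4 predicted genes had bounds of 1.26 to 3.26. XM_229566, annotated as similar to a heat shock protein, had levels of -4.66, -4.52, -4.94 and -4.66 in arrays labelled control and -6.24, -6.51, -6.92 and -9.00 in arrays labelled PMSG, at least 3.26-fold. LOC367545, annotated as like a Y-linked testis protein although these are female ovaries, had -5.95, -5.95, -5.41 and -5.87 against -7.99, -7.72, -7.72 and -8.93, at least 1.52-fold. LOC680643, a CD99-like sequence, had -5.89, -6.23, -6.28 and -5.85 against -7.46, -8.71, -6.65 and -8.06, at least 1.26-fold. In XM_229566 and LOC367545 PMSG array 4 was the lowest of its label. The remaining predicted gene, RGD1561661, is ferritin light chain-like and had a bound of 1.86.

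The 12 probes known by ID alone had bounds of 1.04 to 2.84. A_64_P103434 led them with -5.13, -4.58, -4.18 and -5.68 in arrays labelled control and -6.55, -6.91, -6.85 and -7.92 in arrays labelled PMSG, at least 2.84-fold. In 9 of the 12, PMSG arrays 1 and 3 were the higher pair of their label, as in 25 of all 49 members and in 38.3% of all tested probes. A_64_P002437 is an example, with -6.36 and -6.56 on those arrays and -8.67 and -8.98 on PMSG arrays 2 and 4. This pair was singled out after the values were seen, and the slide rows do not separate the 4 arrays in that way. The 3 transcripts with an accession only, beside the leading one, had bounds of 0.915, 1.32 and 1.51. ENSRNOT00000075593, the lowest of them, had -6.69, -6.68, -6.01 and -6.73 in arrays labelled control and -7.00, -7.35, -6.97 and -8.95 in arrays labelled PMSG.

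Between arrays the members' median level was -5.49, -5.68, -5.33 and -5.51 in arrays labelled control and -7.41, -7.72, -6.97 and -7.92 in arrays labelled PMSG. Control array 3 was the highest of its label for 24 members and PMSG array 3 for 21. Array 3 was often among the brighter ones over all tested probes too. There, control arrays 1 and 3 were the higher pair of their label in 25.2% and PMSG arrays 1 and 3 in 38.3%. For the members these shares were 20.4% and 51.0%, so the counts are not read as a trait of the members. On PMSG array 3 the 75th percentile of the signal was 768.9, the lowest of the 8 arrays, whose others ran up to 1103. The part of that scaling in the members' levels was not tested.

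A probe elsewhere in the same gene was the closest check that the rule did not use directly, although it comes from the same contrast and the same RNA. Of the 49 members, 14 had 16 such probes, of which 11 were tested, for 9 members. Of the 11, 4 were lower and 1 higher past the limma threshold, where 16.6% and 17.6% of all tested probes were. The 11 include overlapping probes of ENSRNOT00000075593, which are not separate measurements. For the other 35 members, among them the 12 known by probe ID alone, no second probe could be matched by gene name or accession.

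In 3 genes the second probe differed by about as much as the member. LOC686142's other probe had levels of -2.45, -2.90, -2.48 and -2.50 in arrays labelled control and -5.65, -5.42, -5.04 and -6.17 in arrays labelled PMSG, a difference of -2.99 ± 0.23 beside the member's -3.21. Sema3d's other probe had -2.96, -3.07, -2.88 and -2.82 against -5.77, -5.59, -5.44 and -5.73, a difference of -2.70 ± 0.11 beside -3.34. Both of these second probes carried the stricter flag on all 8 arrays, so both transcripts were measured under both labels. For Itga8 the other probe lay 105261 bases away and was among the brighter probes, with 1.75, 1.15, 1.63 and 1.89 against -0.68, -0.32, -1.07 and -0.75. Its difference was -2.31 ± 0.20 beside the member's -2.24, and its geometric mean signal in arrays labelled PMSG was still 587.5.

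In Sbp the probes disagreed. The probe 166 bases from the repeat probe had levels of 0.15, -0.63, -0.10 and -0.57 in arrays labelled control and 1.27, 1.74, 1.20 and 1.55 in arrays labelled PMSG, a difference of 1.73 ± 0.21 beside the member's -2.17. Every array labelled PMSG was above every array labelled control there, so Sbp was higher in arrays labelled PMSG by its brighter probe and lower by its repeat probe. No direction is given for the gene.

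Smaller or no differences stood beside the other members. Rgl3's second probe differed by -0.48 ± 0.16 (limma adjusted p = 0.0457) beside the member's -1.52, and the call was lost without any one of control arrays 1, 3 and 4 or PMSG arrays 2, 3 and 4 (adjusted p of 0.0671 to 0.114). Kalrn's second probe, 192060 bases away, differed by -0.43 ± 0.37 beside -2.33, LOC680643's by 0.31 ± 0.18 beside -1.66, and LOC367545's by -1.46 ± 0.84 beside -2.30. The last of these had -4.25 and -4.74 on PMSG arrays 1 and 3 and -8.01 and -7.54 on arrays 2 and 4. ENSRNOT00000075593 had 3 other probes, at -0.30 ± 0.38, 0.30 ± 0.27 and 0.37 ± 0.35. Apart from that of Rgl3, none of these second probes passed the threshold with all arrays. Of the 3 probes of ENSRNOT00000075593, 2 passed without PMSG array 4 (0.58 and 0.74), and LOC680643's passed without PMSG array 2 (0.48). Those 2 probes of ENSRNOT00000075593 share most of their sequence, so they are not separate measurements. The second probes of Foxb1, Mup4, Wisp3 and Hfm1 were below the well-above-background flag on all 8 arrays.

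Probes of neighbouring transcripts were mixed in direction. Within 50000 bases of the 41 placed members, 62 tested probes of other genes had a median difference of 0.12, and 14 (22.6%) were lower and 11 (17.7%) higher past the limma threshold. Within 2000 bases there were 10 tested probes, around 6 members, with a median of -1.55 and 4 lower against 1 higher.

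Of those 10 near probes, 5 lie around A_64_P085200, whose TGCAGAGA repeats are printed above. Its own levels were -5.24, -4.93, -4.70 and -5.10 in arrays labelled control and -6.67, -8.75, -6.37 and -8.99 in arrays labelled PMSG, at least 2.65-fold. The 5 surrounding probes, each sharing 23 to 33 bases with it, differed by -2.51 to -1.16 and carried the stricter flag on 4 control-labelled and 2 or 3 PMSG-labelled arrays. Of the 5, 3 passed the threshold. Since they share sequence, these probes are not separate measurements. Near probes of A_64_P000703, A_64_P093176 and Tpsg1 also share 21, 25 and 31 bases with their member, the last 2 as reverse complement. The median and counts within 2000 bases therefore rest mostly on probes that share sequence with a member. A_64_P079107, 832 bases from A_64_P103434, was lower by -2.59 ± 0.70.

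Of the 30350 probes, 22943 carried the stricter flag on all 8 arrays and 2996 on 0. Just inside were the members with the smallest bounds, Rgl3 (mean levels of -6.44 and -7.96 by label, control first), ENSRNOT00000075593 (-6.53 and -7.57) and Hfm1 (-6.59 and -6.85). Just outside, with 4 arrays labelled control and 1 labelled PMSG, 62 probes were counted, and among the largest differences were those of Reg1a at -4.25 and Kif1a at -3.24. With 3 and 0 arrays there were 40 probes, with ENSRNOT00000073149 at -2.53 and LOC691647 at -2.27 among the largest differences.

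Upstream sequence was available from RefSeq (build GRCr8) for 26 member genes. The promoter of Mmp3, which had the largest bound of any gene with a symbol, is shown from 250 bases upstream to its start, with an AP-1 match (TGANTCA, here 71 bases upstream) and a TATA box match (TATAAA, 32 bases upstream) in capitals.

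Mmp3, chr8:12925031-12925280, plus strand: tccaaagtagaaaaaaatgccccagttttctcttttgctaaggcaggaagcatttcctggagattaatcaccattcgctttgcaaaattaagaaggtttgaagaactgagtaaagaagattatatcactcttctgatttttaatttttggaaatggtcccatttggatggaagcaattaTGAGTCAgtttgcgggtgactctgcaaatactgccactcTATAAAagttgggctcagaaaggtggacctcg

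Over the 26 promoters, each 300 bases with 250 before and 50 after the start and searched on both strands, AP-1 matches (TGANTCA) were in 4 (15.4%) against 7.33% of all 27457 promoters. The core letters of a cAMP response element (TGACG) were in 6 (23.1%) against 22.0%, Sema3d and Itga8 among them. Sites of SF-1 and LRH-1 (AAGGTCA), nuclear receptors of steroid-making cells, were in 0 against 4.37%. The RUNX letters TGTGGT were in 3 of the 26 against 16.9%, CCAAT in 12 (46.2%) against 37.7%, TATAAA in 3 of the 26 against 14.3%, and the GC box GGGCGG in 5 (19.2%) against 34.9%. A match of letters is a description of the sequence only.

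Lists of ovarian genes place the members beside mostly better measured transcripts. Of all tested probes, 16.6% were lower and 17.6% higher past the limma threshold. Of 14 luteal and steroidogenic genes, 12 were lower and 1 higher in arrays labelled PMSG, with a median of -1.98, and of 21 tested preovulatory genes 12 were lower and 1 higher, with a median of -1.02. Areg, an EGF-like ligand of the ovulatory follicle, differed by -4.08 ± 0.45 and Prlr, the prolactin receptor of luteal cells, by -2.15 ± 0.24. Ptgfr, with -3.31, is the only member in any of the 12 lists. Sult1e1, in the preovulatory list, also had the pattern, on 4 control-labelled and 0 PMSG-labelled arrays, with -3.63 ± 0.28. It is not a member because its probe was among those set aside by name. Ptgfr and Sult1e1 are each among the 12 lower genes of their list, and their pattern itself selects for lower values.

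Markers of other cell types are given by how many passed the limma threshold, where 17.6% of all tested probes were higher and 16.6% lower. Oocyte genes were higher in arrays labelled PMSG in 14 of 14, with a median of 1.92, oviduct epithelium genes in 8 of 9, leukocyte genes in 6 of 11 and theca genes in 3 of 4, with 0 lower in each of these lists. Endothelial genes were lower in 5 of 10 and higher in 1, granulosa genes lower in 3 and higher in 2 of 11. Fibroblast and smooth muscle genes were higher in 3 of 10, adipocyte genes in 1 of 8 and striated muscle genes in 3 of 7 with 1 lower, and of 6 red cell genes 1 was lower. The part of these marker differences in the members' differences was not tested.

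The size of the members' differences depended on the background treatment. With normexp background correction, which adds an offset of 50 to every signal, the median member difference was -0.21 and 15 of the 49 passed the threshold, among them ENSRNOT00000010151, Mmp3, Tpsg1, Vom2r53, St8sia5, Sema3d, Ptgfr, Itga8 and LOC686142. LOC680967 and Hfm1 then turned higher in arrays labelled PMSG. With quantile normalization, median centring and the deposited table all 49 stayed lower and 48 passed. Median centring shifted the median of all tested probes from 0.11 to -0.05 and turned the split of called probes from 4206 lower and 4452 higher to 5534 lower and 2914 higher.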

How the data were processed

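Fluorescence intensity of ovary cRNA on 1-colour Agilent rat arrays (4 arrays labelled control, 4 labelled PMSG) was extracted by the authors with Agilent Feature Extraction 11.5.1.1, per the file headers. The deposited table of log2 values matched those intensities scaled to each array's 75th percentile, without centring. Control and outlier spots were left out, spots of a probe were averaged on the log2 scale, 17 probes without a usable spot were dropped, and each array's 75th percentile was subtracted. Probes well above background on at least 4 of 8 arrays (25303) were fitted by label in limma 3.58.1 (R 4.3.3) with Benjamini-Hochberg adjustment. On simulated data (25303 probes, 200 changed) it recovered 55% of log2 changes of 1 and 82% of changes of 2, with 10 false calls. The simulated spread was normal with no background floor, and 34.2% of tested probes were called in the real data. These recovered shares therefore need not hold for the dim members. Well above background were 80.8% to 84.6% of probes per array; array number limits precision. Arrays of one label correlated at 0.980 to 0.992, between labels at 0.969 to 0.978. All arrays shared 1 slide, with 2 arrays of each label in each of 2 slide rows.

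Described array by array were the 12 members with the largest bound and those with another tested probe of their gene. Of these, ENSRNOT00000010151, Tpsg1, Vom2r53, XM_229566, Wisp3, A_64_P103434, Sbp, LOC686142, LOC367545 and LOC680643 were read from 1 spot per array. A_64_P085200, also read from 1 spot per array, is given by array beside its near probes. It is not among the 19 members that this rule selects. The members and the 12 gene lists were chosen with earlier results of these data known. Gene names are the array's; 29 members had a symbol in RefSeq (GRCr8). Positions are on rn4 as deposited, and exon annotation was not used here. Alternatives are given at the end. Of the members and edge probes that this rule names, a few are not reported here.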

Additional observations from a re-analysis of the deposited data

Results flagged for a closer look

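Of 38 groups of 4 arrays over the 19 members described array by array, 6 held one array far from the other 3 (a gap, as a share of the range, past Dixon's critical value), where chance gives about 1 in 20, or 1.9. Mmp3 stood at -6.89 on PMSG array 2 against -8.59 to -8.32 on the others of that label (0.839 of the range). Wisp3 stood apart in both labels, at -5.32 on control array 2 against -4.77 to -4.66 (0.830) and at -7.79 on PMSG array 4 against -6.93 to -6.79 (0.862). LOC686142 was lower on control array 2, at -5.68 against -4.89 to -4.76 (0.862). LOC367545 was higher on control array 3, at -5.41 against -5.95 to -5.87 (0.845), and so was ENSRNOT00000075593, at -6.01 against -6.73 to -6.68 (0.937).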

How the results depend on the processing

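The number of probes with the pattern depended on the flag: with the softer positive-and-significant flag 7 probes had it, of which 0 were among the 49. It was 54 when every usable spot had to be detected (38 shared) and 53 to 70 when one array was left out, each time with all 49 included. The members' median difference was -0.21 with normexp and -0.90 at the bounds, and -2.30 to -1.88 when one array was left out. Members past the threshold numbered 15 with normexp and 43 to 46 when one array was left out. Within slide rows, an alternative chosen after seeing the data, with 2 arrays against 2, limma called 20 members in row 1, with 3351 of all 25303 probes, and 0 in row 2, with 0 of all probes; at an unadjusted p under 0.05 the members numbered 40 and 41, all 49 were lower in both rows, and the medians were -1.78 and -2.26. With slide row as a block 45 members passed. Lower probes over the whole array numbered 3279 to 4400 when one array was left out, and other probes of the members' genes past the threshold 4 to 6. Same-numbered arrays deviated together little (correlations of -0.02 to 0.18), so the numbers were not taken to pair them; with the replicate number as a block 45 members, 3390 lower probes and 4 other probes passed. Of 409 values under alternatives for the 19 members described array by array and the other tested probes of their genes, 372 kept their direction and side of the threshold, 12 lost it, 6 gained it and 19 bounds moved with the floor; 0 reversed. Outside these, LOC680967 and Hfm1 turned higher with normexp. Signals near the floor limit all bounds.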
